A study of Mus musculus with 6 samples.

Results

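The 10 genes described here, Atf4, Ddit3, Trib3, Chac1, Asns, Psat1, Phgdh, Shmt2, Mthfd2 and Slc3a2, encode the transcription factor ATF4 and well-known products of the amino acid stress programme that it drives. They were taken by symbol from 55421 genes counted in cultured macrophages that had been raised from mouse bone marrow. RNA sequencing gave 3 knockout (KO) libraries from cells with floxed Tmem175 alleles (Tmem175flox/flox) and 1 Lyz2-Cre allele (Lyz2-Cre+/-), and 3 wild type (WT) libraries. TMEM175 is a cation channel of endosomes and lysosomes, and Lyz2-Cre acts in myeloid cells through a Cre insertion in the lysozyme gene. Cells carrying Cre alone or the floxed alleles alone were not analysed here, so Cre, the altered Lyz2 locus and loss of Tmem175 cannot be told apart. The labels give neither age nor sex and name no treatment, and the series' design text speaks of wells, not of separate mice; p-values therefore measure the spread between wells, which may be technical.

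ATF4 is a bZIP transcription factor whose messenger RNA is translated better when the initiation factor eIF2 is phosphorylated by kinases that sense amino acid shortage, endoplasmic reticulum stress, viral RNA or heme shortage and mitochondrial stress. Its protein level can thus change with no change in its mRNA, which is all that was measured here. With partners of the C/EBP family it activates genes for amino acid synthesis, import and the mitochondrial folate pathway, and also its own feedback genes. In macrophages the serine and folate enzymes of this programme are known for supporting inflammatory activation.

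ATF4 and its C/EBP partners bind composite elements with a core of TGATG followed by a short half-site, so the promoters were searched on both strands for TGATGNAA (N is any base). The windows came from RefSeq on GRCm38.p6, from 250 bases before to 50 bases after each start site, and all 10 genes had at least 1 window. Trib3, Chac1 and Asns, 3 of the 10 genes, held a match, against 3.97% of 32851 windows of 27025 genes. The 10 genes had 11 windows, so a share of genes is set beside a share of windows. The 10 were also picked as known ATF4 genes, and the contrast was not tested. With the looser TGNNGNAA, which includes every TGATGNAA match, 6 of the 10 genes and 46.5% of all windows matched. The stretches with a TGATGNAA match are shown, and capitals mark the match. They belong to the 3 genes with the lowest mean levels, although the values of Asns overlapped those of Phgdh. A link between match and level was not tested. The Chac1 stretch (chr2:119350992-119351241, plus strand) and the Asns stretch (chr6:7693210-7693459, minus strand) are the 250 bases before the start site, and the Trib3 stretch (chr2:152344028-152344057, minus strand) is 30 bases around a match just after it.
Chac1: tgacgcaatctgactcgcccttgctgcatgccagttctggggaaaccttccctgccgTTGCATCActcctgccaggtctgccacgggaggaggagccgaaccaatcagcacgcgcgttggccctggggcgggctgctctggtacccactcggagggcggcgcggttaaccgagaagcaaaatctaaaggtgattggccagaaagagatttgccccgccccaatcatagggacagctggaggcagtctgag
Asns: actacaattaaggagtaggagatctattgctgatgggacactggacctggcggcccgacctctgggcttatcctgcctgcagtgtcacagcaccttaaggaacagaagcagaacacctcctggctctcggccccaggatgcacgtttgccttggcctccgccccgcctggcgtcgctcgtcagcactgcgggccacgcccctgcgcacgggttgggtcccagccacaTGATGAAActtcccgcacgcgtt
Trib3: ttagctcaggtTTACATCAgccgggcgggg
The match read TGATGCAA in Chac1, on the opposite strand and starting 193 bases before the start site, TGATGAAA in Asns, 23 bases before it, and TGATGTAA in Trib3, on the opposite strand. A match is a description of letters, and none of these data show binding.

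The libraries held 25979430 to 31542741 counts in KO and 24179548 to 25916709 in WT cells. Tmem175 stood at 14.3, 13.2 and 12.1 CPM (counts relative to the library total after TMM scaling) in the KO libraries, against 32.8, 33.4 and 33.2 CPM in the WT libraries, so the targeted gene matched the labels. Over all genes, 14 of 13588 tested, or 0.103%, differed at an adjusted p under 0.05 in edgeR's quasi-likelihood test, with 0.0147% higher and 0.0883% lower in KO. The first principal component (29.3% of the variance) placed WT replicates 1 and 2 at 19.9 and 17.5. KO replicates 2 and 3 lay at -17.4 and -13.2 and WT replicate 3 at -9.41, with KO replicate 1 in between at 2.62. All 10 macrophage markers checked were expressed, with a sum of 9718 to 10604 CPM in KO and 9618 to 10761 CPM in WT libraries without Lyz2. Markers of other marrow cells were low but present: 10 neutrophil markers summed to 709 to 764 CPM in KO and 417 to 613 CPM in WT libraries, and 10 mast cell and basophil markers, with Cma1 at 0, to 18.3 to 25.5 CPM in KO and 25.3 to 33.6 CPM in WT libraries. The sums were 24.1 to 36.8 CPM in KO and 34.7 to 43.4 CPM in WT libraries for 8 dendritic cell markers. They were 10.5 to 13.8 CPM in KO and 14.0 to 17.5 CPM in WT libraries for 10 markers of T, B and NK cells. For 9 erythroid and megakaryocyte markers, with Hbb-bs at 0, they were 99.6 to 149 CPM in KO and 124 to 206 CPM in WT libraries, and for 6 fibroblast and stromal markers 24.3 to 50.8 CPM in KO and 16.5 to 67.0 CPM in WT libraries. S100a9 made up 38.5% of the neutrophil sum and Cd79b 66.9% of the sum for T, B and NK cells. Markers did not all follow the sum of their list: Mpo, a neutrophil marker, averaged 7.94 CPM in KO and 13.5 CPM in WT libraries. The part of these other cell types in the results below was not tested. In such bulk samples fewer cells of a type and less RNA per cell cannot be told apart.

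In macrophages of both genotypes Slc3a2 and Atf4 had the highest levels of the 10 genes, and Trib3 and Chac1 the lowest. Levels between genes were compared as CPM per kilobase of merged exon length. Slc3a2, the heavy chain shared by several amino acid exchangers, was the highest, at 59.6 ± 8.73 CPM per kilobase in KO and 61.9 ± 3.60 in WT libraries (SD, n = 3 each), above 94.6% of tested genes. Atf4 followed at 40.2 ± 1.31 CPM per kilobase in KO and 42.1 ± 2.22 in WT libraries, above 92.0% of tested genes. Shmt2, Ddit3 and Mthfd2 formed a middle range, at 8.85 ± 0.270, 9.39 ± 0.307 and 5.45 ± 0.766 CPM per kilobase in KO and 9.65 ± 0.575, 9.01 ± 0.629 and 5.82 ± 0.988 in WT libraries. Psat1, Phgdh and Asns lay lower, with 0.976 to 2.72 CPM per kilobase over all 6 libraries, with Asns above 27.8% and Phgdh above 33.1% of tested genes. Trib3 stood at 0.464 ± 0.127 CPM per kilobase in KO and 0.283 ± 0.0615 in WT libraries. Chac1 was the lowest, at 0.0926 ± 0.0413 CPM per kilobase in KO and 0.190 ± 0.0961 in WT libraries, above only 4.0% of tested genes.

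The order was firm at the steps from Slc3a2 to Atf4, from Atf4 to Shmt2, from Ddit3 to Mthfd2, from Mthfd2 to Psat1 and from Asns to Trib3, where the 6 values of neighbours did not overlap. Shmt2 and Ddit3, Psat1 and Phgdh, Phgdh and Asns, and Trib3 and Chac1 overlapped, so their order is within the spread. The step from Atf4 to Shmt2 was the widest, 4.45-fold. The 10 genes thus spanned from 0.0610 CPM per kilobase for Chac1 to 69.6 for Slc3a2 in single libraries.

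**Figure D1:**
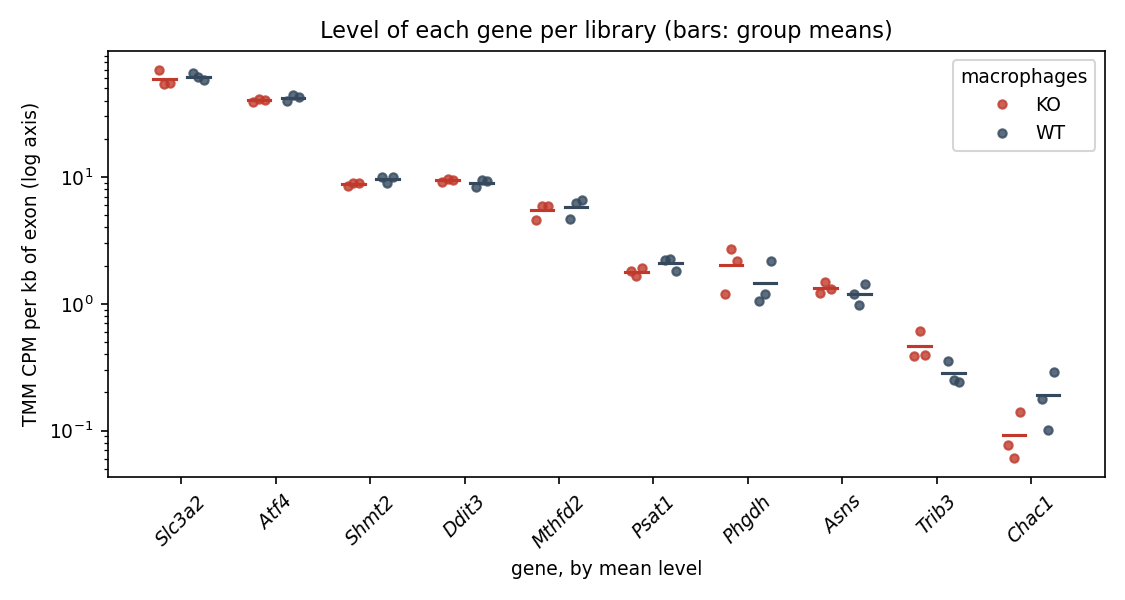
Level of each of the 10 genes in each library, as TMM CPM per kilobase of exon on a log axis, with 3 KO libraries left of 3 WT libraries and bars at the group means. Slc3a2 and Atf4 lie highest and Trib3 and Chac1 lowest in both genotypes.

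Among the regulators, Atf4 (ENSMUSG00000042406, chromosome 15, 80255184 to 80257541) lay slightly lower in KO on average and did not pass. It stood at 91.3, 97.3 and 95.6 CPM in the KO libraries, against 93.9, 104 and 99.9 CPM in the WT libraries. The ranges overlapped, with KO replicate 1 lowest and WT replicate 2 highest. Its log2 fold change of -0.07 (SE 0.05) had a 95% interval of -0.19 to 0.05 and an adjusted p of 0.968 (edgeR), so the interval reached from 0.879-fold to 1.03-fold.

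Ddit3 (ENSMUSG00000025408, chromosome 10, 127290774 to 127296288) encodes CHOP, a bZIP factor that ATF4 induces under prolonged stress. It stood at 15.5, 16.5 and 16.2 CPM in the KO libraries, against 14.2, 16.2 and 15.9 CPM in the WT libraries. Only WT replicate 1 lay below all KO libraries, and the groups overlapped. KO over WT, the log2 fold change was 0.06 (SE 0.07) with a 95% interval of -0.11 to 0.23 (adjusted p = 0.975, edgeR). The strand setting of the counting is not given in the sources used here, and Ddit3 shares 68 exonic bases with Mars and 13 with Gm4189 on the other strand. A second Ensembl ID with the symbol Ddit3 had a count of 0 in every library. All of its 105 exonic bases are shared with the first ID on the same strand. How reads that overlap several genes were treated is not given either. The 0 therefore does not show that this stretch is silent, and reads over it may be missing from the level of Ddit3.

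Trib3 (ENSMUSG00000032715, chromosome 2, 152337422 to 152344032) encodes a pseudokinase that feeds back on ATF4 and CHOP. It had 26, 39 and 22 counts in the KO libraries, against 18, 13 and 13 in the WT libraries. These are 0.825, 1.30 and 0.837 CPM in KO, against 0.751, 0.534 and 0.517 CPM in WT. All KO libraries lay above all WT libraries, which made Trib3 the 1 gene of the 9 tested whose groups did not overlap, while 10.8% of all tested genes had groups that did not overlap, 5.73% with KO higher and 5.06% with KO lower. Its log2 fold change of 0.72 (SE 0.32, 95% interval 0.01 to 1.43) had an unadjusted p of 0.0486, and 5.44% of all tested genes had an unadjusted p under 0.05; it did not pass over all genes (adjusted p = 0.908, edgeR). The gap between KO replicate 1 and WT replicate 1 was small beside counting error, with 95% Poisson intervals of 0.539 to 1.21 CPM in KO replicate 1 and 0.445 to 1.19 CPM in WT replicate 1, which like all such intervals here cover counting error only. Without KO replicate 2, the highest library, the log2 fold change came to 0.47 (adjusted p = 1.00, edgeR).

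Chac1 (ENSMUSG00000027313, chromosome 2, 119351229 to 119354381) encodes an enzyme that degrades glutathione and is strongly induced by ATF4 in stressed cells. It had 4, 3 and 6 counts in the KO libraries, against 7, 4 and 12 in the WT libraries, and did not pass the filter on low counts. The groups overlapped. WT replicate 3, the highest library, had the widest interval, at 0.247 to 0.833 CPM. This interval overlapped that of KO replicate 3, at 0.0838 to 0.497 CPM. With no filter the fitted log2 difference was -1.03 (SE 0.67, adjusted p = 0.854, edgeR), so a difference was not detectable at this depth.

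Asns (ENSMUSG00000029752, chromosome 6, 7675169 to 7693254), which makes asparagine from aspartate and glutamine, stood at 3.33, 4.03 and 3.58 CPM in the KO libraries, against 3.26, 2.67 and 3.90 CPM in the WT libraries. WT replicate 2 was lowest, KO replicate 2 highest, and the groups overlapped. At a log2 fold change of 0.15 with an SE of 0.18 (adjusted p = 0.973, edgeR), its 95% interval ran from 0.842-fold to 1.47-fold.

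The serine synthesis enzymes went in opposite directions, and neither passed. Phgdh (ENSMUSG00000053398, chromosome 3, 98313170 to 98339990), the first enzyme that diverts glycolytic carbon into serine, stood at 2.95, 6.76 and 5.44 CPM in the KO libraries, against 2.63, 2.96 and 5.37 CPM in the WT libraries. KO replicate 1 and WT replicates 1 and 2 were low and the other 3 libraries high. The same 3 low libraries had positive values on the first principal component, although KO replicate 1, at 2.62, lay between the others there. The low libraries had Poisson intervals up to 3.73 CPM and the high ones from 4.50 CPM on. Its log2 fold change was 0.46 (SE 0.33, 95% interval -0.29 to 1.21, adjusted p = 0.968, edgeR), and leaving out single libraries moved it from 0.19 without KO replicate 2 to 0.85 without WT replicate 3, with 0.74 without KO replicate 1. In the annotation 21 other genes, mostly processed pseudogenes, matched a Phgdh transcript over at least 400 bases at 90% identity or more, and they held 1 count in all beside 709 for Phgdh. How reads that match several copies were treated is not given in the sources used here, so the level of Phgdh is uncertain.

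Psat1 (ENSMUSG00000024640, chromosome 19, 15904678 to 15947337), the aminotransferase of the next step, stood at 7.74, 7.06 and 8.10 CPM in the KO libraries, against 9.44, 9.57 and 7.67 CPM in the WT libraries. WT replicates 1 and 2 were above all other libraries, and WT replicate 3 lay among the KO libraries. For Psat1 the log2 fold change was -0.22 (SE 0.12, 95% interval -0.48 to 0.04, adjusted p = 0.941, edgeR). A single pseudogene, Gm12611, matched Psat1 at 91.0% identity and had no count.

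The mitochondrial enzymes that pass serine carbon into folate lay slightly lower in KO on average, with groups that overlapped, and neither passed. Shmt2 (ENSMUSG00000025403, chromosome 10, 127517123 to 127522444), which splits serine into glycine and a folate-bound carbon, stood at 26.6, 27.9 and 28.1 CPM in the KO libraries, against 31.2, 27.9 and 30.9 CPM in the WT libraries. The KO libraries and WT replicate 2 lay together, and WT replicates 1 and 3 above them. Its log2 fold change was -0.12 (SE 0.06, 95% interval -0.26 to 0.01, unadjusted p = 0.0676, adjusted p = 0.932, edgeR). Shmt2 shares 32 exonic bases with Ndufa4l2 on the other strand.

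Mthfd2 (ENSMUSG00000005667, chromosome 6, 83305691 to 83325908), the mitochondrial folate dehydrogenase and cyclohydrolase, stood at 15.9, 20.6 and 20.5 CPM in the KO libraries, against 16.4, 21.6 and 22.9 CPM in the WT libraries. Replicate 1 of each genotype was low and the other 4 libraries were high. KO over WT gave a log2 fold change of -0.10 (SE 0.14, 95% interval -0.40 to 0.21, adjusted p = 0.979, edgeR), and it was 0.020 without KO replicate 1.

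Slc3a2 (ENSMUSG00000010095, chromosome 19, 8706882 to 8723369) stood at 246, 191 and 194 CPM in the KO libraries, against 231, 217 and 206 CPM in the WT libraries. KO replicate 1 was highest and KO replicates 2 and 3 were lowest of all, so the WT range lay inside the KO range. Slc3a2 had a log2 fold change of -0.05 (SE 0.09, 95% interval -0.26 to 0.15, adjusted p = 0.979, edgeR), and it was 0.014 without KO replicate 2 and 0.00020 without KO replicate 3.

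**Figure D2:**
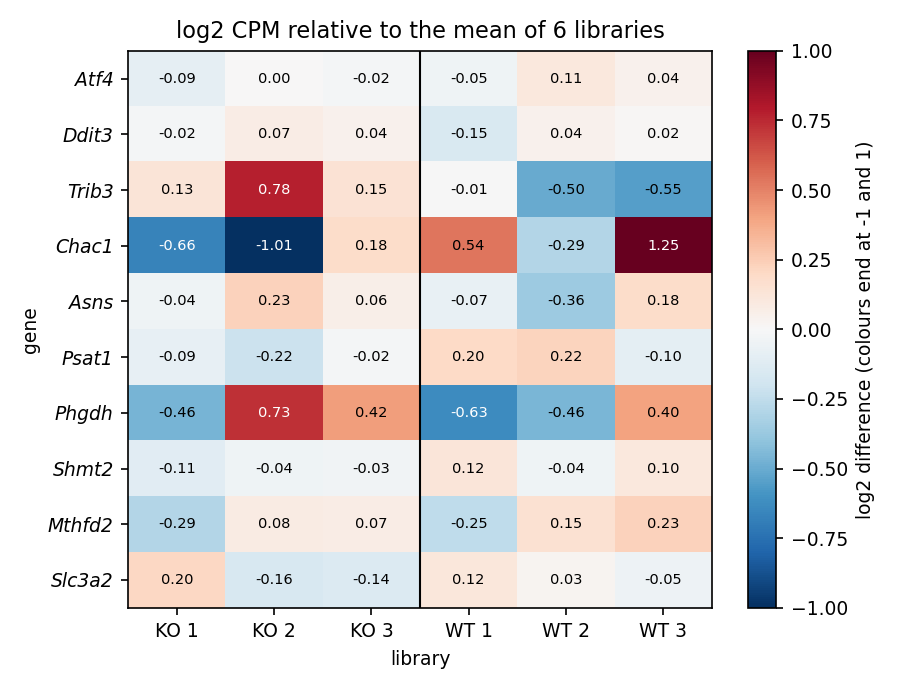
Log2 CPM of each gene in each library relative to its own mean over the 6 libraries, KO libraries left of WT libraries, in colours that end at -1 and 1. Phgdh is low in KO replicate 1 and WT replicates 1 and 2, while Shmt2 stays within 0.12 of its mean in all 6.

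In all, 0 of the 9 tested genes passed at an adjusted p under 0.05 in edgeR's test, against 0.103% of all tested genes, and 0 passed with DESeq2 or limma-voom; 1, Trib3, had an unadjusted p under 0.05. Of the 9, 4 had a positive log2 fold change, beside 49.6% of all tested genes. Their median log2 fold change was -0.05, beside -0.00090 for all tested genes, and their median absolute log2 fold change was 0.12, beside 0.07. The SE ran from 0.05 for Atf4 to 0.32 for Trib3, which had few counts, and 0.33 for Phgdh. For Phgdh the coefficient of variation within genotypes was 3.97 times what counting error alone gives. Whether the larger absolute median exceeds this noise was not tested. A p that misses the threshold does not show equal levels: the widest intervals, those of Trib3 and Phgdh, reached 2.69-fold and 2.31-fold, whereas those of Atf4, Ddit3, Shmt2, Mthfd2, Slc3a2 and Psat1 stayed between 0.716-fold and 1.17-fold.

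**Figure D3:**
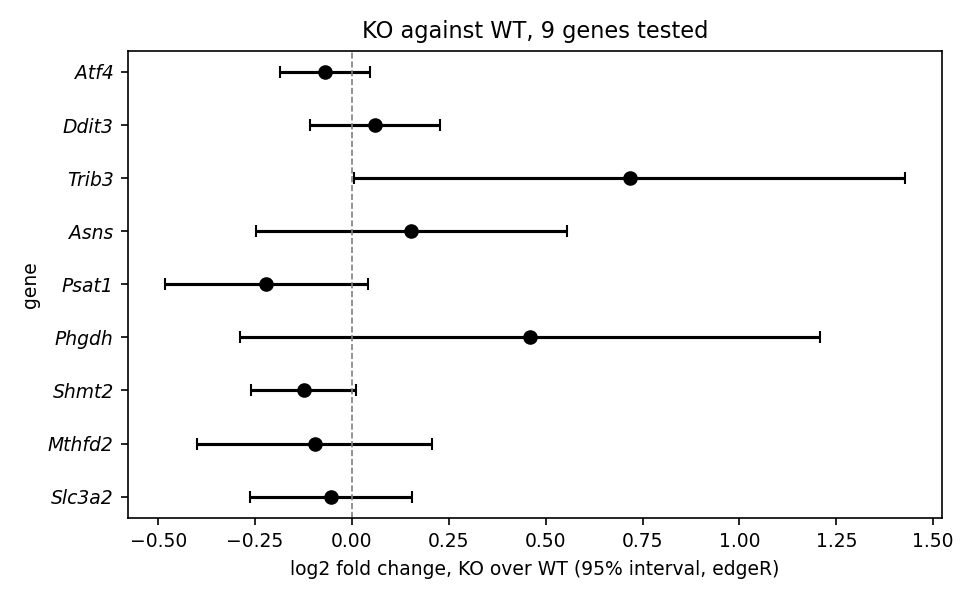
Log2 fold change of KO over WT for the 9 genes tested, with 95% intervals from edgeR (3 libraries per genotype). All intervals but that of Trib3, which starts at 0.01, include 0.

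The genes differed in how much they varied between libraries of a genotype. The coefficient of variation within genotypes was 4.38% for Atf4, 4.73% for Shmt2 and 5.45% for Ddit3. For Ddit3, Trib3 and Chac1 it was 1.11, 1.07 and 1.05 times what counting error alone gives. For Slc3a2 it was 11.2%, or 8.39 times the counting error, for Phgdh 39.6%, or 3.97 times, and for Mthfd2 15.6%, or 3.54 times.

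The 10 genes did not move together as 1 block across the 6 libraries. Of the 45 pairs of genes, 24 had a positive and 21 a negative Pearson r on log2 CPM, with a median of 0.15. At an absolute r of at least 0.8 there were 5 pairs, 3 positive and 2 negative, which is 11.1% of pairs, beside 6.65% of all pairs of tested genes. After Benjamini-Hochberg adjustment over the 45 pairs, 0 passed (lowest adjusted p = 0.3875), and 5 had an unadjusted p under 0.05 in exact two-sided permutation tests over 720 pairings, which can reach 0.0028 at the lowest.

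Atf4 and Mthfd2 were the pair of regulator and target with the highest r. It was 0.84 (exact permutation p = 0.0417, adjusted p = 0.3875), with a Spearman rho of 0.94 (exact permutation p = 0.0167, adjusted p = 0.188), and r was 0.91 without KO replicate 1 and WT replicate 2. Atf4 and Asns had an r of -0.32, and Atf4 and Phgdh one of 0.17. Phgdh and Slc3a2 went opposite ways: r was -0.90 (exact permutation p = 0.0292, adjusted p = 0.3875), rho -0.94 (exact permutation p = 0.0167, adjusted p = 0.188), and r -0.84 without KO replicate 2 and WT replicate 1. Asns and Psat1 also ran in opposite directions, with r = -0.86 (exact permutation p = 0.0236, adjusted p = 0.3875), rho = -0.94 (exact permutation p = 0.0167, adjusted p = 0.188) and r = -0.63 without KO replicate 2 and WT replicate 2. Asns and Phgdh had r = 0.81 (exact permutation p = 0.0333, adjusted p = 0.3875) with rho = 0.77 (exact permutation p = 0.103, adjusted p = 0.661), and 0.89 without KO replicate 2 and WT replicate 2. Chac1 and Shmt2 had r = 0.84 (exact permutation p = 0.0431, adjusted p = 0.3875), rho = 0.89 (exact permutation p = 0.0333, adjusted p = 0.250) and r = 0.92 without KO replicate 2 and WT replicate 3, with Chac1 at the few counts given above. Taken as deviations from the genotype means, which sets the genotypes level, 5 pairs had an r of at least 0.8 and 3 of -0.8 or below. The positive ones were Atf4 and Ddit3 (0.96), Ddit3 and Mthfd2 (0.93), Atf4 and Mthfd2 (0.87), Phgdh and Mthfd2 (0.84) and Asns and Shmt2 (0.81). The negative ones were Phgdh and Slc3a2 (-0.91), Mthfd2 and Slc3a2 (-0.86) and Asns and Psat1 (-0.85). Asns and Phgdh came to 0.76 and Chac1 and Shmt2 to 0.70. These r were not tested, and their share over all pairs of genes was not computed. On log2 CPM, leaving out KO replicate 1 and WT replicate 1 turned r from 0.72 to -0.83 for Ddit3 and Mthfd2. It turned r from -0.77 to 0.65 for Mthfd2 and Slc3a2. Atf4 and Ddit3 had 0.49, and 0.62 without KO replicate 1 and WT replicate 2. Phgdh and Mthfd2 had 0.64, and 0.56 without KO replicate 2 and WT replicate 1. Asns and Shmt2 had 0.18, and 0.27 without KO replicate 2 and WT replicate 2.

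**Figure D4:**
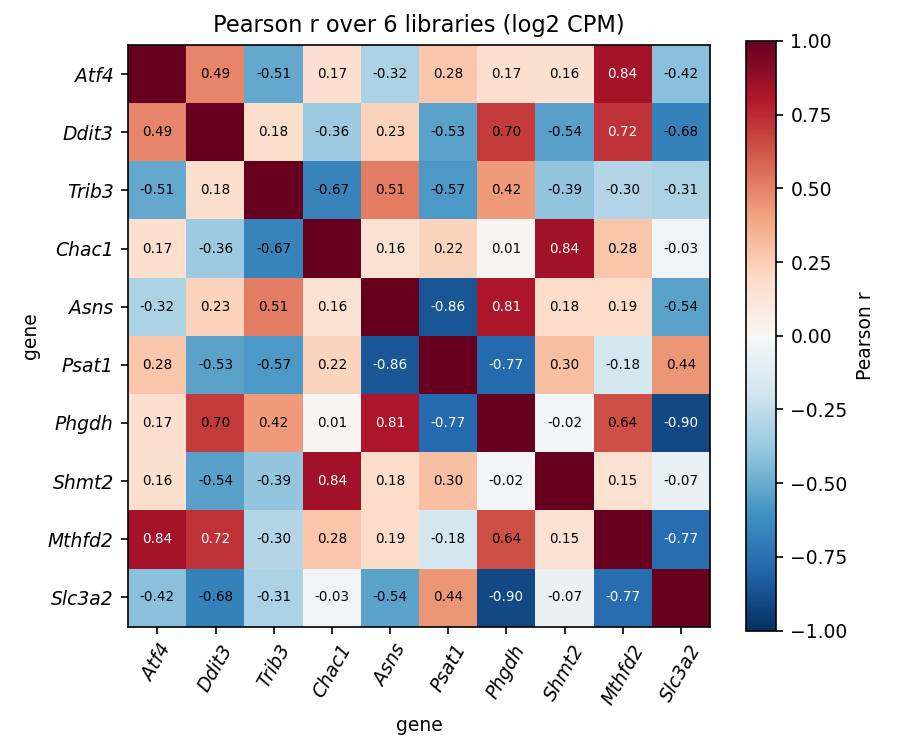
Pearson r over 6 libraries for each pair of the 10 genes, on log2 CPM, in colours from -1 to 1. Positive and negative pairs are about equally many, and Phgdh with Slc3a2 is the most negative at -0.90.

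The mean z score of the 9 tested genes ran from -0.44 in KO replicate 1 to 0.28 in WT replicate 3. The 5 genes at 10 CPM or more on average whose pattern was most like it over the 6 libraries were Ifit1bl1, Sp100, Fabp3, Tdrd7 and Oasl2, with r of 0.997, 0.997, 0.992, 0.990 and 0.989. Of the 8244 genes compared, 256 had an r above 0.9. The 5 were picked for their high r, so these values are no test of a link. The mean also joins genes that did not move together.

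No tested gene of the surrounding pathway passed either. Slc7a3, Slc6a9, Slc43a1, Aldh1l2, Gldc, Cth, Cbs and Bcat1, besides Stc2 and Fgf21, did not pass the filter on low counts. Across 10 lists, 130 genes were tested, Ddit3 and Trib3 among them, and 0 were called by edgeR, DESeq2 or limma-voom. An unadjusted p under 0.05 was found for 5 of the 130, or 3.85%, beside 5.44% of all tested genes. The groups did not overlap for 7 of the 130, or 5.38%, beside 10.8% of all tested genes: Eif2b2, Eif2b1, Trib3, Gdf15 and Canx lay higher and Aars and Dnajc3 lower in KO, of which Dnajc3 was named after its values were seen. The eIF2 kinases, their phosphatase subunits and the exchange factor eIF2B had 0 of 14 tested genes called, 5 positive and 9 negative, with a median log2 fold change of -0.02. The smallest p-values in this list were those of the eIF2B subunits Eif2b2, at 32.8 ± 1.63 CPM in KO and 30.0 ± 0.0758 CPM in WT libraries (log2 fold change 0.13, SE 0.05), and Eif2b1, at 21.1 ± 0.669 CPM in KO and 19.1 ± 0.316 CPM in WT libraries (0.14, SE 0.06); both had an adjusted p of 0.908 (edgeR). Of the bZIP partners and feedback genes, which include Ddit3 and Trib3, 0 of 10 were called, with a median of -0.03. Cebpb, a C/EBP factor that pairs with ATF4, stood at 88.3 ± 6.56 CPM in KO and 105 ± 21.9 CPM in WT libraries (log2 fold change -0.25, SE 0.12, adjusted p = 0.932, edgeR).

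Other stress targets of ATF4 had 0 of 12 tested genes called, 8 positive and 4 negative, with a median log2 fold change of 0.03, while Stc2 and Fgf21 did not pass the filter. Gdf15, a secreted stress cytokine, had the smallest p of any list: it stood at 24.3 ± 0.815 CPM in KO and 21.1 ± 0.817 CPM in WT libraries (SD, n = 3 each), with a log2 fold change of 0.20 with SE 0.06 (unadjusted p = 0.00677, adjusted p = 0.734, edgeR). Tnfrsf10b, a death receptor, stood at 0.548 ± 0.144 CPM in KO and 0.880 ± 0.396 CPM in WT libraries (log2 fold change -0.68, SE 0.39).

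Amino acid transporters had 0 of 10 tested genes called, with a median log2 fold change of -0.03. Slc38a2, a sodium-coupled importer of neutral amino acids, stood at 146 ± 17.5 CPM in KO and 126 ± 10.2 CPM in WT libraries (log2 fold change 0.21, SE 0.09, adjusted p = 0.908, edgeR). Slc7a7, a light chain that pairs with Slc3a2, stood at 58.8 ± 3.93 CPM in KO and 64.3 ± 1.86 CPM in WT libraries (-0.13, SE 0.06, adjusted p = 0.918). Slc1a4, chosen after its values were seen because it had the highest log2 fold change of the list (0.86, SE 0.55, adjusted p = 0.966), stood at only 0.545 ± 0.105 CPM in KO and 0.300 ± 0.235 CPM in WT libraries.

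The further enzymes of serine, glycine and folate metabolism had 0 of 15 tested genes called, 4 positive and 11 negative, with a median log2 fold change of -0.02. Sfxn1, a mitochondrial serine carrier, stood at 21.6 ± 2.19 CPM in KO and 23.7 ± 1.40 CPM in WT libraries, a log2 difference of -0.13 (SE 0.08) that was not called (adjusted p = 0.961, edgeR). Other amino acid enzymes had 0 of 11 called and a median of -0.01, with Asl of the urea cycle at 0.07 (SE 0.06) and the branched-chain aminotransferase gene Bcat2 at 0.09 (SE 0.08). Of the cytosolic aminoacyl-tRNA synthetases, several of which ATF4 induces, 0 of 14 were called, with a median of -0.01; Aars stood at 82.0 ± 0.685 CPM in KO and 85.7 ± 1.43 CPM in WT libraries (log2 fold change -0.06, SE 0.04, adjusted p = 0.966, edgeR), and Tars at 41.3 ± 0.714 CPM in KO and 42.7 ± 1.88 CPM in WT libraries (-0.05, SE 0.05).

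Chaperones and sensors of the endoplasmic reticulum had 0 of 21 tested genes called, 13 positive and 8 negative, with a median log2 fold change of 0.02. Canx, a lectin chaperone, stood at 468 ± 6.22 CPM in KO and 442 ± 13.9 CPM in WT libraries (log2 fold change 0.08, SE 0.04, adjusted p = 0.950, edgeR), and Ero1l, an oxidase for disulfide bonds, at 35.8 ± 2.25 CPM in KO and 33.4 ± 1.04 CPM in WT libraries (0.10, SE 0.06). Mitochondrial chaperones and proteases had 0 of 9 called, with a median of -0.01; Hspd1 stood at -0.10 (SE 0.06) and Hspa9 at -0.06 (SE 0.04) on the log2 fold change scale.

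**Figure D5:**
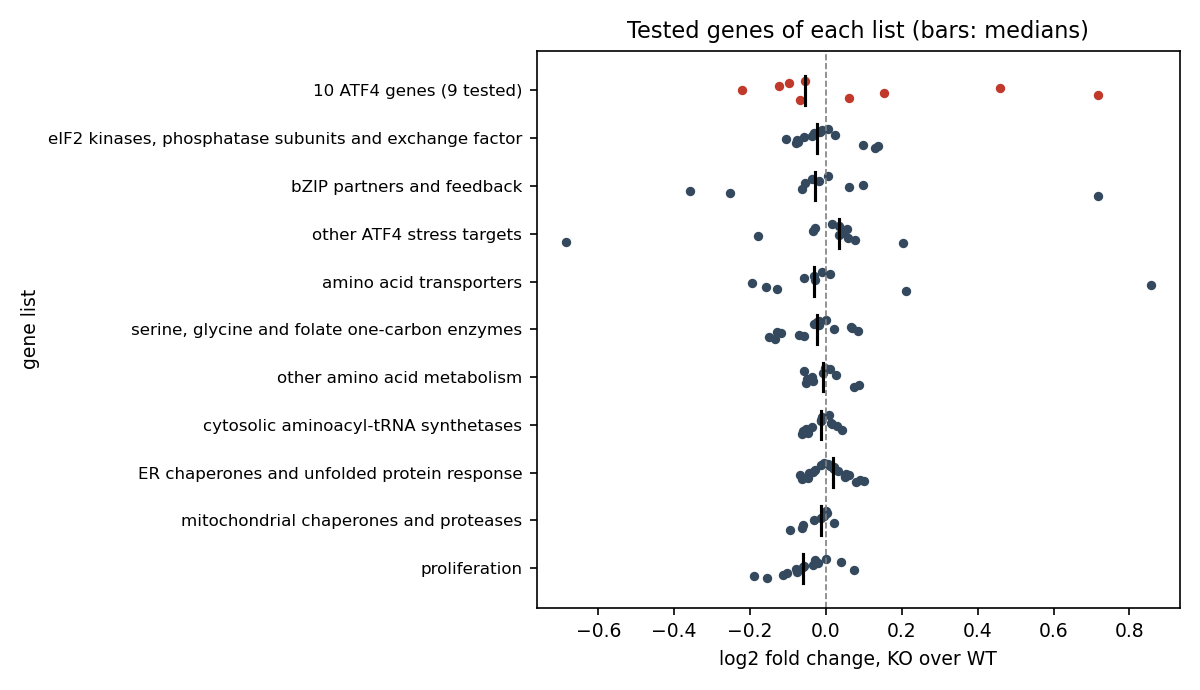
Log2 fold change of KO over WT for each tested gene of the 10 ATF4 genes and of 10 lists of the surrounding pathways, with bars at the medians. The medians lie between -0.06 and 0.03, and 0 of these genes passed the test over all genes.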

How the data were processed

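Raw counts per Ensembl gene were deposited by the authors; per the submitters' processing notes, reads were aligned with HISAT2 to GRCm38 and counted with featureCounts. Neither versions nor annotation release nor strand setting were stated. Symbols, exon lengths and coordinates came from GENCODE M21 on the same build, which matched 55240 of 55421 IDs. Counts were filtered with filterByExpr and scaled by TMM, leaving 13588 genes, 9 of the 10 described among them. KO and WT (3 libraries each, 24179548 to 31542741 counts) were compared with edgeR 4.0.16 in R 4.3.3 by the two-sided quasi-likelihood test, modelling genotype alone, and p-values were adjusted by Benjamini-Hochberg over all genes. Standard errors were derived from the F statistic. CPM are TMM-scaled; log2 CPM for correlations had a prior count of 2. The test was tested on simulated data. The 10 genes and all lists were chosen with earlier results of these data known. Genes named were the 10, Tmem175, the 2 smallest p-values of each list and the 5 genes most alike, of which 1 list gene is not reported here; Lyz2 was read only as a marker. Alternatives were other scalings, filters, dispersion options, DESeq2 1.42.0, limma-voom (limma 3.58.1), a replicate block and leaving out each library. Libraries of a group differed by more than sampling noise (chi-square over degrees of freedom 3.66 to 17.6).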

Additional observations from a re-analysis of the deposited data

How the results depend on the processing

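Every alternative run left 0 of the 10 genes and 0 genes of the surrounding lists called. The 9 tested genes kept their direction under all alternatives that could test them, apart from 3 cases: Mthfd2 at 0.020 without KO replicate 1 (-0.23 to 0.020 without single libraries), and Slc3a2 at 0.014 without KO replicate 2 and 0.00020 without KO replicate 3 (-0.18 to 0.014 without single libraries). Of the 9 genes, 4 had a positive log2 fold change; when genes had to average 10 CPM, where only 5 of the 10 were tested, 1 had. Trib3 ranged from 0.47 to 0.91 and Phgdh from 0.19 to 0.85 over their alternatives, with lowest adjusted p-values of 0.572 and 0.490. Over all genes, 2 were higher and 12 lower in KO; the DESeq2 Wald test gave 10 higher and 30 lower, no filter 39 and 112, and an average of 10 CPM or more 0 and 5. Leaving out single libraries gave 0 to 2 higher and 4 to 10 lower. The number of gene pairs with an absolute r of at least 0.8 was 5, and it was 8 for deviations from the group means and 5 to 12 without single libraries (8 without KO replicate 1 and 12 without WT replicate 2). With exon length taken from the longest transcript, 8 of 10 genes kept their place, and Shmt2 and Ddit3 changed places. Library totals alone moved the median of all genes to 0.04. With the replicate number as a block, 3 genes were higher and 14 lower. Libraries with the same number did not deviate together (r = 0.06, -0.12 and 0.04 for numbers 1, 2 and 3), so the number is no evidence of pairing. Depth limits Chac1 and Trib3.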

Other observations

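Proliferation genes, which share the demand for nucleotides that the folate enzymes serve, had 0 of 14 tested genes called, 3 positive and 11 negative, with a median log2 fold change of -0.06. Rrm2, a subunit of ribonucleotide reductase, stood at 15.3 ± 1.14 CPM in KO and 16.98 ± 1.79 CPM in WT libraries (SD, n = 3 each), which is a log2 difference of -0.15 (SE 0.09, edgeR adjusted p = 0.961), and Mcm5, a subunit of the replicative helicase, at 31.0 ± 3.14 CPM in KO and 35.4 ± 6.54 CPM in WT libraries (-0.19, SE 0.12, adjusted p = 0.966). The mean log2 level of the list relative to its mean over all libraries was -0.02, -0.12 and 0.06 in the KO libraries and 0.04, 0.18 and -0.14 in the WT libraries, so its lowest and highest library were both WT.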
